A study of Rattus norvegicus with 352 samples.

Results

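Neurotrophins are secreted growth factors that neurons and glia read through receptors at the cell surface, and 6 genes of this system were followed here across brains of untreated rats. The genes are the ligands Bdnf and Ntf3, the tyrosine kinase receptors Ntrk2 and Ntrk3, the low-affinity receptor Ngfr and the secreted neuropeptide precursor Vgf. They were taken by symbol, as 6 of the 38354 genes in the deposited table, and not by any measured value. PolyA RNA was sequenced from whole brain hemispheres of naive outbred laboratory rats of the heterogeneous stock, a population descended from several inbred strains. All but 10 of the labelled samples are in the table, and they form 1 group with no treatment, so the question is how far each gene differs between libraries and what it varies with. The labels give no sex, age or time of day, and a hemisphere mixes all regions and cell types, so fewer cells of a type and less RNA per cell cannot be told apart.

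Bdnf binds the receptor encoded by Ntrk2, and Ntf3 binds mainly the receptor encoded by Ntrk3, while Ngfr binds all neurotrophins and their uncleaved precursors. Neuronal activity is known to raise transcription of Bdnf and Vgf in the forebrain, partly through cAMP response elements bound by CREB. Ntrk2 is made as a kinase form in neurons and as a truncated form in astrocytes; the deposited values are per gene and do not separate forms.

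Libraries held between 5418230 and 42980793 estimated counts, with a median of 21881769, and between 22962 and 27876 genes above 0. Levels below are log2(CPM + 1), where CPM is estimated counts scaled to the same total in every library, and the 16683 genes that averaged 1 or more on this scale were tested; all 6 genes are among them. Libraries whose identifiers start alike form 7 blocks of at least 8 libraries. The labels do not say what the blocks are, and relations of the 6 genes with each other, with scores over all libraries and with their nearest genes were repeated within them. Counts were not divided by transcript length, so levels are compared between libraries and not between genes.

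The promoters of Vgf and Bdnf are shown because both genes are known targets of CREB and were the pair of these 6 genes that varied together most. RefSeq on the rat assembly GRCr8 gives a window of 250 bases before 1 start of Vgf, 6 starts of Bdnf and 3 starts of Ntf3. The full cAMP response element TGACGTCA, which reads the same on both strands, and its core CGTCA, searched on both strands, were looked for; the full element contains the core on each strand. The single Vgf window, chr12:25277021-25277270 on the minus strand, holds the full element, in capitals, with its first base 90 bases before the start. That start, at base 25277020, lies inside the span of Vgf given below, so this window is not outside the gene. Of the Bdnf windows, the one at chr3:116637608-116637857 on the plus strand is shown because it alone holds the core, in capitals, 35 bases before the start.
Vgf: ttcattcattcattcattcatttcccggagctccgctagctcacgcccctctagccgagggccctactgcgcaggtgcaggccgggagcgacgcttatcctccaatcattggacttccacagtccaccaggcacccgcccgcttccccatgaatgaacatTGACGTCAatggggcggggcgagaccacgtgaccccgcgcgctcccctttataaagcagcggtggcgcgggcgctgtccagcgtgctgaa
Bdnf: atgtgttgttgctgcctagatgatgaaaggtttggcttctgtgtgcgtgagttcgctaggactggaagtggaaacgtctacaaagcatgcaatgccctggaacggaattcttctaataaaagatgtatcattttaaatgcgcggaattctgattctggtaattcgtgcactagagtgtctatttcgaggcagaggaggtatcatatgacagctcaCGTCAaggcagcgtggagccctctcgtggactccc
The full element is in 1.59% of 33469 such windows of all genes and the core in 18.2%, so the core alone is common. No full element was found in any window of Bdnf and no match of either kind in those of Ntf3, which says only that these letters are not in those windows.

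Bdnf, on chromosome 3 (116619633 to 116670212), encodes the brain-derived neurotrophic factor. Its level was lowest at 3.93, had a median of 4.54 and was highest at 5.05, which is 14.2, 22.3 and 32.2 CPM. The libraries in between form a continuous range, with a mean of 4.54 ± 0.21 (SD over all libraries). Between the 5th and 95th percentiles the level differed 1.61-fold on the log2(CPM + 1) scale. Counting error, estimated from the counts behind each value (120 in the shallowest case, 491 at the median), made up 9.51% of its variance.

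Ntf3, on chromosome 4 (160601161 to 160670623), encodes neurotrophin-3 and rested on few counts. Its level ran from 0.88 over a median of 1.49 to 2.0, with a mean of 1.48 ± 0.19 (SD over all libraries). These levels correspond to between 5 and 83 counts, with a median of 40 counts. Counting error made up 65.8% of its variance, so differences between libraries were hardly measurable for Ntf3 at this depth.

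The kinase receptors differed little between libraries. Ntrk2, on chromosome 17 (5560558 to 5875899), encodes the receptor TrkB, and its level ran from 9.08 over a median of 9.39 to 9.58, with a mean of 9.39 ± 0.08 (SD over all libraries). Ntrk3, on chromosome 1 (141526192 to 141913575), encodes TrkC, and its level ran from 7.03 over a median of 7.44 to 7.75, with a mean of 7.43 ± 0.11 (SD over all libraries). From the 5th to the 95th percentile these are ranges of 1.19-fold for Ntrk2 and 1.28-fold for Ntrk3.

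Ngfr, on chromosome 10 (81012077 to 81030305), encodes the low-affinity receptor, which in the adult brain is known above all from basal forebrain cholinergic neurons. Its level ran from 2.15 over a median of 3.20 to 3.92, with a mean of 3.21 ± 0.30 (SD over all libraries), which is 3.43, 8.20 and 14.1 CPM at the lowest, median and highest. This was the widest range of the 6 genes, 1.92-fold between the 5th and 95th percentiles. Counting error made up 11.3% of its variance.

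Vgf, on chromosome 12 (25274004 to 25281803), encodes a precursor of secreted peptides that BDNF is known to induce. Its level ran from 7.16 over a median of 7.58 to 8.15, with a mean of 7.57 ± 0.17 (SD over all libraries). Its 5th and 95th percentiles were 1.47-fold apart, and 1.86% of its variance was counting error.

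Because spread depends on level, each SD was divided by the SD that a smooth trend over all tested genes gives at the same mean level. Vgf alone of the 6 genes reached 2 times the trend, at 2.12 times, where 5.12% of all tested genes did. Ngfr had 1.79 times the trend SD, Bdnf 1.76, Ntrk3 1.33, Ntrk2 1.10 and Ntf3 0.83. The median of the 6 ratios was 1.54, against 0.99 over all tested genes.

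**Figure D1:**
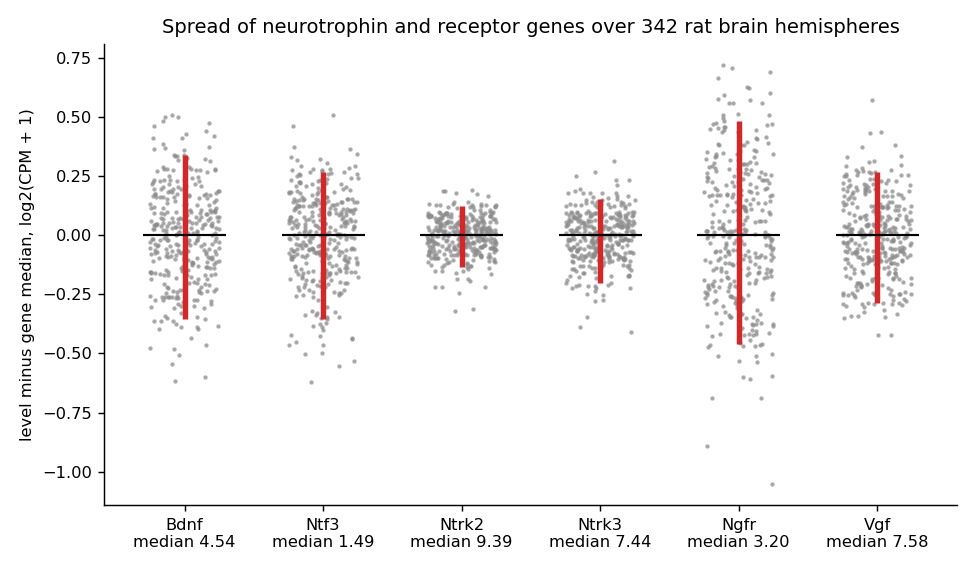
Level of each gene minus its own median, in log2(CPM + 1), for every library (grey points), with the 5th to 95th percentile as a red bar and the median as a black line. Ngfr has the widest range and Ntrk2 the narrowest; 1.92-fold and 1.19-fold lie between their percentiles.

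Between the identifier blocks, Ntrk2 was the only one of the 6 genes to differ by limma's moderated F-test (adjusted p = 7.43e-06), where 8.21% of tested genes did. Its block means lay between 9.30 and 9.43, a gap of 0.13 against an SD within blocks of 0.06 to 0.10. Of the other 5 genes, block means of Ngfr lay between 3.01 and 3.25 and were the farthest apart, with an adjusted p of 0.777 in the same F-test.

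Activity was read from 2 scores, each the mean z value of a gene list that holds none of the 6 genes. The immediate early gene score takes 12 genes switched on within minutes of neuronal firing, led by level by Egr1, Arc and Nr4a1. By limma, 4 of the 6 genes were called with it, where 27.7% of tested genes were, 14.9% higher and 12.8% lower with the score. Bdnf and Vgf were higher where the score was higher, and the receptors Ntrk2 and Ntrk3 were lower.

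Bdnf gained 0.08 ± 0.01 log2 units per SD of the immediate early gene score (slope ± SE; adjusted p = 8.88e-12). Pearson's r was 0.39 and Spearman's rho 0.39 (two-sided permutation p = 1e-05 each, the smallest that 100000 permutations can give). Without the 2 libraries farthest from the median score r was 0.37, and within the 7 blocks it lay between 0.18 and 0.84. The Bdnf relation with activity was thus positive in every block.

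Ntrk2 had r = -0.38 with the same score (rho = -0.34, permutation p = 1e-05 each, limma adjusted p = 3.72e-11), and r was negative in 6 of 7 blocks. Ntrk3 had r = -0.25 (rho = -0.22, limma adjusted p = 4.69e-05), also negative in 6 of 7 blocks. For Vgf r was 0.17 (rho = 0.17, limma adjusted p = 0.00663), positive in 5 of 7 blocks. In the deposited values, which are not divided by the library total, r with this score was positive for all 6 genes, 0.56 for both Ntrk2 and Ntrk3, so these negative directions hold for shares of a library and not for raw counts.

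Single genes were then set against the level of each of the 6 genes. Of all tested genes 18.8% were called higher and 40% lower with Ntrk2, 37.7% higher and 30.1% lower with Ntrk3, 21.3% higher and 18.4% lower with Bdnf, 17.1% higher and 36.6% lower with Vgf, and 18.2% higher and 26.1% lower with Ngfr. Against that background all 12 immediate early genes were called lower where Ntrk2 was higher, and 11 of 12 lower where Ntrk3 was higher, in libraries scaled to their totals. With Bdnf, 11 of 12 were called higher, Btg2 being the exception with r = 0.05. With Vgf, 7 of 12 were called higher and none lower. Ntf3 (r = -0.03, limma adjusted p = 0.71) and Ngfr (r = -0.05, limma adjusted p = 0.535) were not called with the score, and no immediate early gene was called with either.

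The late response score takes 10 genes listed as responding to neuronal activity, among them the synaptic organiser Nptx2, the scaffold Homer1 and the regulators Rgs2 and Rgs4. The order in which these and the immediate early genes respond was not measured here. Of the 6 genes 5 were called with it by limma, where 55.3% of tested genes were called. Bdnf gained 0.17 ± 0.01 log2 units per SD of this score (slope ± SE), with r = 0.82 and rho = 0.81 (permutation p = 1e-05 each, limma adjusted p = 3.27e-82). That r was larger in size than in 99.988% of tested genes. It was 0.82 again without 2 libraries and between 0.72 and 0.90 within blocks, and all 10 late response genes were called higher with Bdnf.

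The other genes followed the late response score more loosely. Vgf had r = 0.38 (rho = 0.37, limma adjusted p = 7.37e-12, between 0.01 and 0.69 within blocks). Ngfr had r = -0.30 (rho = -0.28, limma adjusted p = 9.77e-08), negative in 7 of 7 blocks. Ntrk2 had r = -0.28 (adjusted p = 6.09e-07) and Ntrk3 r = -0.14 (adjusted p = 0.0188); Ntf3 was not called (r = 0.10, adjusted p = 0.101), all by limma.
The late response score also went with region and cell type markers, where 55.3% of all tested genes were called. Called higher with it were 9 of 9 striatal and 7 of 9 cortical excitatory markers, with 2 cortical ones lower. Called lower were 10 of 11 cerebellar markers, with 1 higher, and 7 of 7 choroid plexus markers. With the immediate early gene score in the model Ntrk3 was no longer called (partial r = -0.02) and Ntf3 was (partial r = 0.13). With the cell type and region scores, where 47.1% of tested genes were called, Ntrk2 was not called (partial r = -0.06). Partial r was then -0.18 for Ngfr, 0.50 for Vgf and 0.82 for Bdnf. In the unscaled deposited values r of all 3 receptors with this score was positive, 0.91 for Ntrk2, 0.90 for Ntrk3 and 0.67 for Ngfr.

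**Figure D2:**
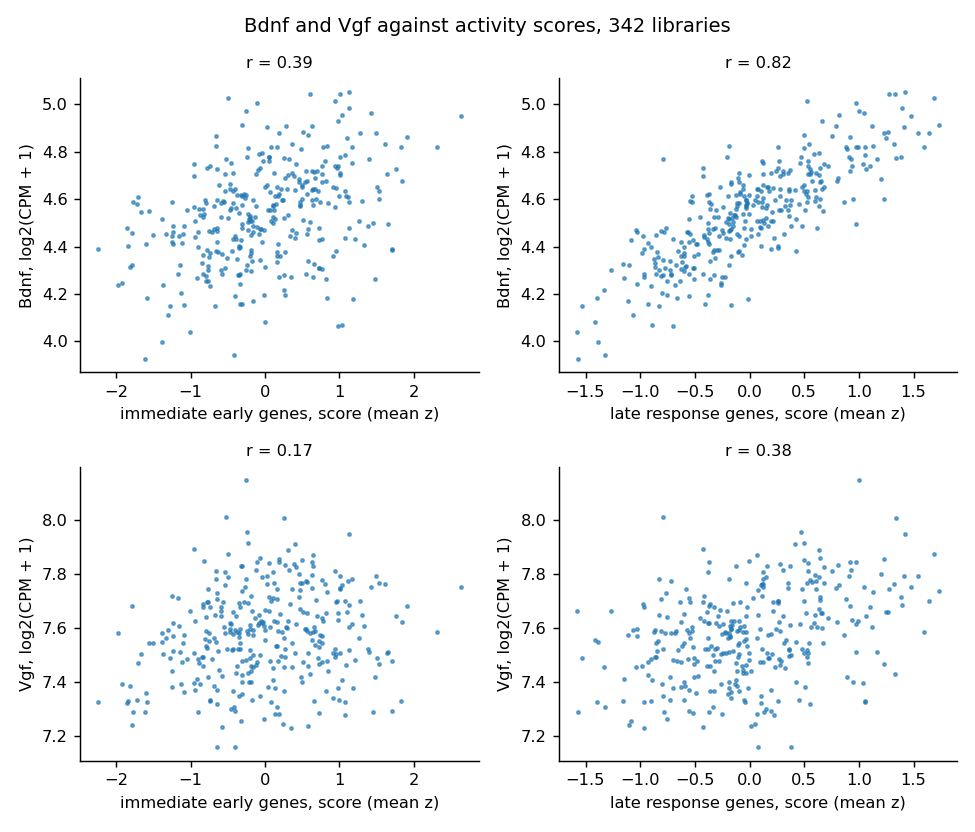
Level of Bdnf (upper row) and Vgf (lower row), in log2(CPM + 1), against the immediate early gene score and the late response score (mean z) in every library, 1 point each. Bdnf follows the late response score closely (r = 0.82) and the immediate early gene score less (r = 0.39).

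The 2 scores share part of their variation, since all 12 immediate early genes were called higher with the late response score. In a model that holds both scores, an alternative chosen after seeing the data, the partial r with the immediate early gene score was -0.03 for Bdnf and -0.01 for Vgf, and neither was called. Ntrk2 and Ntrk3 were still called lower, so 2 of 6 genes were called in that model, where 26.4% of tested genes were.

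The 5 genes nearest to Bdnf in pattern, by Pearson's r over all libraries, were Egr3, an early response transcription factor (0.76), the MAP kinase phosphatase Dusp4 (0.71), the cAMP response regulator Crem (0.69), the mitochondrial phosphatase Pdp1 (0.69) and the chaperone Dnajb5 (0.68). Within blocks these r were positive throughout, from 0.46 to 0.91. They stayed between 0.38 and 0.59 after the first 10 principal components of all tested genes were removed. In all, 39.6% of tested genes were called with the level of Bdnf.

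Those nearest to Vgf were the late response gene Nptx2 (0.60), Cbarp, which binds calcium channel subunits (0.60), the chaperone Hyou1 (0.56), the brain creatine kinase Ckb (0.55) and the ubiquitin ligase Pja1 (0.55). Nptx2 lies on chromosome 12 too, 10119758 bases from Vgf by start site, that of Vgf being taken at base 25281803 and not at the promoter window. Its r with Vgf was 0.62 after components were removed and between 0.55 and 0.88 within blocks. With the level of Vgf 53.7% of tested genes were called.

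Among the 6 genes themselves, 7 of 15 pairs were called by limma, positive or negative. The share of all tested genes called was 39.6% with the level of Bdnf, 0% with Ntf3, 58.8% with Ntrk2, 67.8% with Ntrk3, 44.4% with Ngfr and 53.7% with Vgf. No pair with Ntf3 was called, and with Ntf3 no gene at all was called by limma, with 1697 of 16682 (10.2%) at an unadjusted p under 0.05. Its nearest genes in pattern were Bag5 (0.24), the pseudogene Zfp273l-ps1 (0.23), Btg3 (0.22), Ankrd54 (0.22) and the noncoding RNA Snhg4 (0.21), and r with 3 of these 5 changed sign between blocks.

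Bdnf and Vgf formed the closest pair, with r = 0.49 and rho = 0.50 (permutation p = 1e-05 each). It was 0.47 without 2 libraries and positive in 7 of 7 blocks, from 0.32 to 0.72. It was still called with the first 10 principal components removed (r = 0.56) and with both activity scores in the model (partial r = 0.34). Bdnf was lower where Ntrk2 was higher (r = -0.16, permutation p = 0.0025) and where Ngfr was higher (r = -0.16, permutation p = 0.0025). With median ratio scaling the first was -0.11 and not called. With components removed both r were positive, 0.13 and 0.12, but neither pair was called (limma adjusted p = 0.103 and 0.918). In the unscaled values, where every gene carries the library total, they were 0.81 and 0.60.

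The receptors Ntrk2 and Ntrk3 were higher together (r = 0.23, rho = 0.15, positive in 6 of 7 blocks), without a call once components were removed (r = 0.09). Vgf was higher with Ntrk2 (r = 0.19, positive in 5 of 7 blocks) and lower with Ntrk3 (r = -0.22, negative in 7 of 7 blocks). The pair of Vgf and Ntrk2 was called in 10 of 10 alternatives. Its r was 0.20 with components removed, and its partial r 0.34 with both activity scores in the model. The r of Vgf with Ntrk3 became 0.08, without a call, with components removed and 0.85 in unscaled values. Ntrk3 and Ngfr were just called (r = -0.12, limma adjusted p = 0.0495), and this pair lost its call in 5 of the alternatives in which the sign held. Ntf3 and Ntrk3 had r = -0.02, but with counting error at 65.8% of the variance of Ntf3 a relation would be hard to detect.

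The 6 genes were fitted on 21 measures: the late response score, 19 further scores and the library total. By limma 60 combinations of a measure with 1 of the 6 genes were called, which is 47.6% of them. The share of all tested genes called ranged from 0.492% for the library total to 73.5% for the nuclear RNA score. The 47.6% lies within that range, so the count by itself does not set the 6 genes apart from other tested genes. Ntf3 was called with none of them, and none of the 6 genes was called with the library total.

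Ntrk2 followed the astrocyte score, which holds Slc1a2 and S100b among others, with r = 0.62 and rho = 0.60 (permutation p = 1e-05 each, limma adjusted p = 5.39e-36). It was 0.60 without 2 libraries and between 0.52 and 0.81 within blocks. Of all tested genes 65.7% were called with this score, but 99.7% had an r smaller in size than that of Ntrk2. By gene, 10 of 11 astrocyte markers were called higher with Ntrk2, where 18.8% of all tested genes were, with r = 0.61 for the glutamate transporter Slc1a2, and S100b was not (r = 0.01).

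Bdnf, by contrast, had r = -0.28 with the astrocyte score and r = -0.30 with that of oligodendrocyte precursors, where 59.8% of tested genes were called; both r were negative in 6 of 7 blocks, and both were positive, 0.81 and 0.79, in the unscaled values. Ntrk2 had r = 0.37 with the precursor score, positive in 7 of 7 blocks. Ngfr had r = 0.21 with the astrocyte score, and Ntrk3 (r = -0.07) and Vgf (r = 0.08) were not called with it.

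Ntrk3 was lower with the oligodendrocyte score, with r = -0.45 (rho = -0.45, limma adjusted p = 4.18e-17), negative in 6 of 7 blocks and 0.90 in the unscaled values. Bdnf was called lower with it too (r = -0.18, limma adjusted p = 0.00241). Of tested genes 59% were called with the oligodendrocyte score, and 97.4% had a smaller r in size than Ntrk3. Of 10 oligodendrocyte markers 9 were called lower with Ntrk3, where 30.1% of all tested genes were, among them the myelin protein genes Mbp (r = -0.53) and Mobp (r = -0.29).

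The nuclear RNA score, made of the nuclear noncoding RNAs Meg3 and Miat, was called with 73.5% of tested genes, so a call with it singles out no gene. Ntrk3 had r = 0.41 with it, Ntrk2 r = -0.31, Ngfr r = -0.29 and Vgf r = -0.22, and Bdnf was not called (r = 0.08). For Ntrk3 75.8% of tested genes had a smaller r in size. In the unscaled values r was positive for Ntrk2 (0.61), Vgf (0.54) and Ngfr (0.38) too.

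The genes nearest to Ntrk3 were Xkr6 (0.80), the sodium leak channel subunit Unc80 (0.79), the diacylglycerol kinase Dgkh (0.79), the calcium channel Cacna1e (0.79) and the presynaptic scaffold Pclo (0.79). After 10 components were removed these r were between 0.10 and 0.36. The 5 nearest to Ntrk2 were the microtubule proteins Map1b (0.66) and Map1a (0.62), the actin regulators Fmn2 (0.64) and Enah (0.63) and the lipid transfer protein Pitpnc1 (0.64), with 0.22 to 0.40 after removal.
In wider sets, the 100 genes nearest to Ntrk2 had a median genomic length of 134580.5 bases and the 100 nearest to Ntrk3 of 130610.5. Over all tested genes the median was 23476. Not every named gene was long, as Map1a spans 19732 bases. For Bdnf it was 14942.5, for Vgf 16639.5, for Ngfr 27925.5 and for Ntf3 22831.5 bases. Ntrk2 itself spans 315342 bases and Ntrk3 387384, and the part of gene length in these relations was not tested.

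Ngfr was higher with the monoamine, hypothalamic and cholinergic neuron scores and lower with the cortical excitatory neuron score. It was also lower with the striatal score (r = -0.30, negative in 6 of 7 blocks). It had r = 0.34 with the monoamine neuron score (rho = 0.35, limma adjusted p = 5.12e-10, 0.29 to 0.55 within blocks), r = 0.33 with hypothalamic neurons and r = 0.30 with basal forebrain cholinergic neurons. With cortical excitatory neurons r was -0.33, negative in 7 of 7 blocks, and 0.72 in the unscaled values. The monoamine, hypothalamic, cholinergic and cortical scores called 66.3%, 59.9%, 60% and 62.5% of tested genes. With the monoamine score 79.3% of tested genes had a smaller r in size than Ngfr did.

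By gene, where 18.2% of all tested genes were called higher with Ngfr and 44.4% in either direction, 6 of 8 monoamine neuron markers were called higher with it, including the vesicular transporter Slc18a2 (r = 0.28) and the synthesis enzymes Ddc (r = 0.32) and Th (r = 0.26). Of the 5 measured cholinergic markers 3 were, the choline transporter Slc5a7 with r = 0.32, the acetylcholine synthesis enzyme Chat with r = 0.31 and the vesicular transporter Slc18a3 with r = 0.29. The basal forebrain transcription factors Lhx8 (r = 0.06) and Isl1 (r = -0.01), in the same list, were not called. How much of each region a dissection held was not measured, and its part in these relations was not tested.

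Vgf was higher with the hypothalamic (r = 0.28, positive in 6 of 7 blocks), cholinergic (r = 0.25) and monoamine (r = 0.25) scores, the last positive in 7 of 7 blocks. Ntrk3 was lower with the hypothalamic score (r = -0.35, limma adjusted p = 1.64e-10, negative in 7 of 7 blocks, 0.66 in the unscaled values). Hypothalamic markers went the same ways: 7 of 8 were called higher and 1 lower with Vgf, where 17.1% of all tested genes were higher. With Ntrk3 7 of 8 were called lower and 1 higher, where 30.1% of all were lower. The oxytocin gene Oxt had r = 0.23 with Vgf and -0.32 with Ntrk3.

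Ntrk3 had r = -0.31 with the microglia score (limma adjusted p = 4.73e-07), negative in 7 of 7 blocks, where 36.6% of tested genes were called and 98.5% had a smaller r in size. Bdnf had r = 0.21 with the inhibitory interneuron score, positive in 6 of 7 blocks, where 19% were called and 94.2% had a smaller r. By gene, 4 of 9 interneuron markers were called higher and 2 lower with Bdnf, where 21.3% of all tested genes were higher and 18.4% lower. The median r of these markers with Bdnf was 0.05. Their mean r with each other was -0.03, so this list did not vary as a set. With the striatal score, where 62.4% of tested genes were called, Bdnf was higher (r = 0.23) and Ngfr (r = -0.30) and Ntrk2 (r = -0.28) were lower, and all 3 were positive in the unscaled values, 0.70 for Ngfr and 0.93 for Ntrk2.
Ntrk2 was higher with the scores of dentate gyrus granule cells (r = 0.25, 58.2% called) and meningeal fibroblasts (r = 0.33, 63.1% called). Of 6 measured dentate markers 2 were called higher with Ntrk2, where 18.8% of all tested genes were, and 4 were not called. The mean r of the dentate markers with each other was 0.02. Ngfr was higher with the scores of choroid plexus (r = 0.28, 65.3% called), oligodendrocytes (r = 0.26, 59% called) and meningeal fibroblasts (r = 0.23, 63.1% called). It was also higher with those of cerebellar neurons (r = 0.18, 56.4% called) and endothelial cells and pericytes (r = 0.14, 39.6% called). Ngfr was lower with the glucocorticoid-responsive gene score (r = -0.19, 19.2% called), negative in 7 of 7 blocks. None of the 6 genes was called with the red blood cell score, where 17.5% of tested genes were. In the unscaled values r was positive for Ntrk3 with microglia (0.91) and for Ngfr with the glucocorticoid-responsive genes (0.58).

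**Figure D3:**
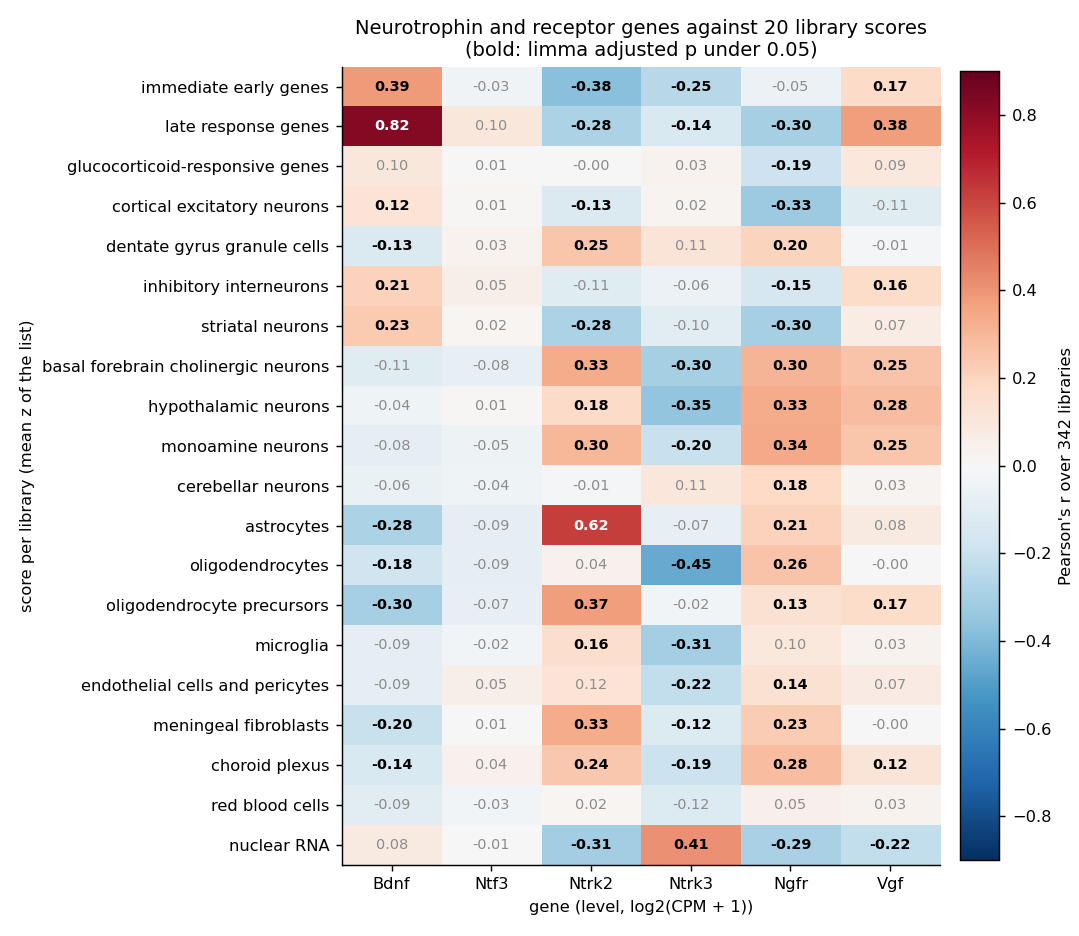
Pearson's r over all libraries between each of the 6 genes (columns, level in log2(CPM + 1)) and 20 list scores (rows, mean z), red for positive and blue for negative, in bold where limma's adjusted p is under 0.05. The highest value is Bdnf with the late response score (0.82), then Ntrk2 with the astrocyte score (0.62); the Ntf3 column has no call.

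The score of clock genes that peak with Dbp falls into separate levels, with 52 libraries low and 290 high, so r was taken within each. Vgf was lower where these clock genes were higher in both sets: r = -0.33 and rho = -0.29 among the 52 libraries (permutation p = 0.015 and 0.037), r = -0.30 and rho = -0.30 among the 290 (permutation p = 1e-05 each). Without the 2 libraries farthest from the median score r was -0.26 and -0.29. Of the 9 clock genes 8 were called lower with Vgf, including the transcription factors Tef (r = -0.37), Dbp (r = -0.35) and Hlf (r = -0.34) over all libraries, where 17.1% of all tested genes were called higher and 36.6% lower with the level of Vgf. With the score itself 28% of tested genes were called.
For Bdnf r within the sets was -0.09 and -0.08 (permutation p = 0.55 and 0.2), so no relation was detectable there. Over all libraries Bdnf was called lower with the score (r = -0.20, limma adjusted p = 0.00154). Its mean was 4.63 among the 52 libraries and 4.52 among the 290 (SD 0.17 and 0.21). For Vgf the means were 7.69 and 7.55 (SD 0.15 and 0.16). These gaps between the sets were not tested on their own. Of the other genes Ntrk2 had r = -0.18 among the 290 libraries (permutation p = 0.0015) and r = -0.17 among the 52 (permutation p = 0.24). Ntf3 had r = -0.12 among the 290 libraries (permutation p = 0.042) and r = -0.11 among the 52 (permutation p = 0.42). In all, 12 relations within a set were computed.

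**Figure D4:**
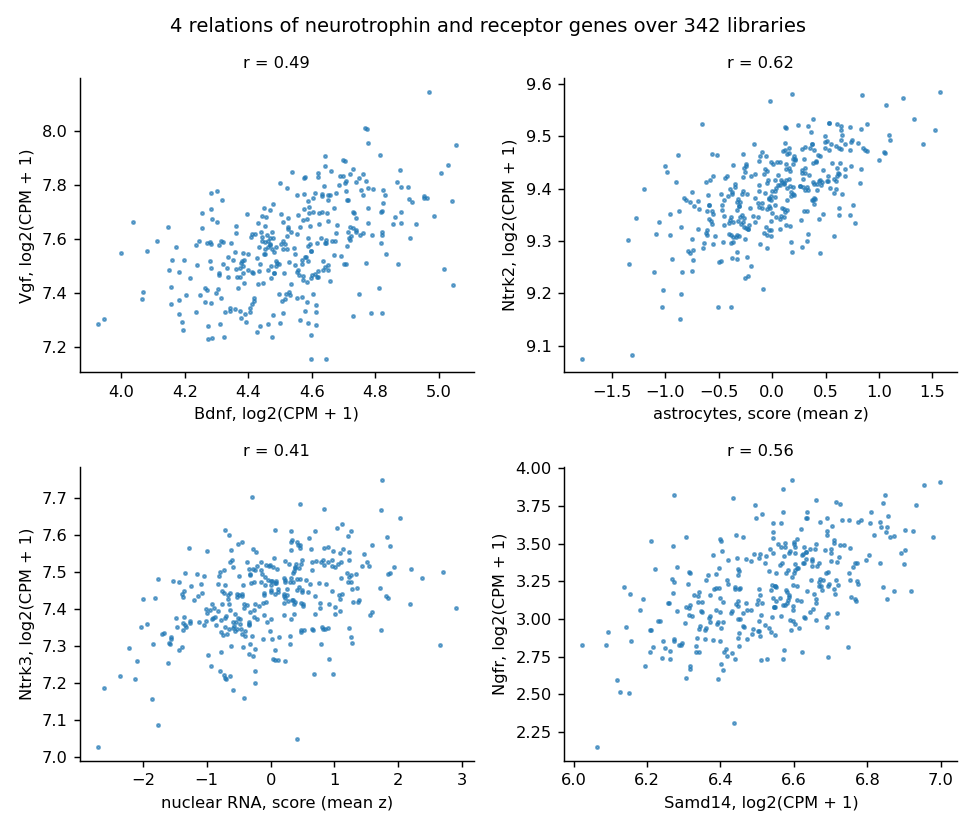
Scatter of all libraries, 1 point each, for Vgf against Bdnf, Ntrk2 against the astrocyte score, Ntrk3 against the nuclear RNA score and Ngfr against Samd14; levels are log2(CPM + 1) and scores are mean z. All 4 relations are positive, with r of 0.49, 0.62, 0.41 and 0.56.

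The genes nearest to Ngfr in pattern were Samd14 (0.56), Wdr6 (0.47), the Wnt inhibitor Nkd1 (0.44), the growth factor binding protein Igfbp5 (0.44) and the transcription factor Tox2 (0.43). Samd14 lies on chromosome 10, 576353 bases from Ngfr by start site, and its r was positive in every block, between 0.30 and 0.79. After 10 principal components were removed r with Samd14 was still 0.48, while it was between 0.02 and 0.09 for the other 4.

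This led, after the values were seen, to a look at what remained with Ngfr once the components were gone. Of 16682 genes 12 were then called (0.0719%), and all 12 lie on chromosome 10 within 1.75 Mb of the start of Ngfr, among 73 tested genes within 2 Mb. The levels of 9 were higher and of 3 lower where Ngfr was higher. Besides Samd14, they include the transcription factor Nfe2l1 (r = 0.34), Mycbpap (0.33), the scaffold Spag9 (0.27), the phosphatase Phospho1 (0.24), the glycosyltransferase B4galnt2 (0.23), Rsad1 (-0.30) and Lrrc46 (-0.22); 3 carry bare locus identifiers.
With 20 components removed 15 genes were called, 12 of them within 2 Mb; with 5 removed 0.803% of genes were, 11 of them within 2 Mb. Genotypes were not used here, and inherited differences near Ngfr were not tested.

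The same step left other numbers for the rest of the genes. With Ntrk2 2231 genes were called, 8 of 26 (30.8%) within 2 Mb against 13.4% of all, and with Vgf 2064, 13 of 67 (19.4%) against 12.4%. With Ntrk3 63 genes (0.378%) were called, none of 39 within 2 Mb, with Bdnf 1496 (8.97%) and 1 of 7 within 2 Mb, and with Ntf3 1 (0.00599%), on another chromosome. No other member showed calls limited to its own neighbourhood.

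The other genes of the neurotrophin pathway were taken from lists of 64 genes, of which 62 were tested. Ntf4, the remaining neurotrophin, lay below the level minimum (mean level 0.33, median 5 counts), and 1 symbol matched no gene. With the immediate early gene score 21 of the 62 were called by limma (33.9%, against 27.7% of all tested genes), 8 higher and 13 lower; their median r was 0.00, as over all genes (-0.00). With the level of Bdnf 27 were called (43.5%, against 39.6%), 14 higher and 13 lower. Both shares are near the background. With the late response score 42 were called (67.7%, against 55.3%), 20 higher and 22 lower. With Ntrk2 42 were (67.7%, against 58.8%), 29 higher and 13 lower, and the median r was 0.07, against -0.07 over all genes. With Ntrk3 50 were (80.6%, against 67.8%), 28 higher and 22 lower, and with Vgf 35 (56.5%, against 53.7%), 26 higher and 9 lower, with a median r of 0.06, against -0.06 over all genes. With Ngfr 29 were called (46.8%, against 44.4%), and with Ntf3 none, as for all genes.

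Among further ligands and receptors, the sorting receptor Sort1, which binds pro-neurotrophins, was called lower with the immediate early gene score (r = -0.26). Its relatives Sorcs3 (r = -0.25) and Sorcs1 (r = -0.17) were lower too, and none of 7 was called higher. Of all tested genes 14.9% were called higher with this score and 12.8% lower, the background for the lists below as well. Sorcs2, the second of this list by level after Sort1, had r = -0.13 and was not called.

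Of 12 genes of processing and release, Plat, the plasminogen activator that helps cleave pro-BDNF, was called higher with the score (r = 0.44) and the prohormone convertase Pcsk2 lower (r = -0.21). The 2 of highest level, the carboxypeptidase Cpe (r = -0.06) and the granin Chgb (r = 0.12), were not called. With the level of Bdnf 6 of the 12 were called higher and 1 lower, where 21.3% of all tested genes were higher and 18.4% lower. With that of Vgf, itself a cargo of secretory granules, 9 of 12 were called higher and 1 lower, where 17.1% of all were higher and 36.6% lower. The convertase Pcsk1, named after its values were seen, had r = 0.55 with Bdnf and 0.32 with Vgf.

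Of 25 receptor adaptors and signalling genes, 4 were called higher and 6 lower with the immediate early gene score. Among all tested genes 14.9% were higher and 12.8% lower. The growth kinase Mtor (r = -0.30) and the receptor scaffold Kidins220 (r = -0.29) were lower, and the adaptor Sh2b1 was higher (r = 0.27). The receptor phosphatase Ptprs, of highest level, was not called (r = -0.10). Mtor was also lower with Bdnf itself (r = -0.47), and higher with Ntrk2 (r = 0.44).

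Of 9 partners of the Ngfr receptor, Bex3 was called higher with the score (r = 0.19) and the signal adaptor Traf6 lower (r = -0.18), while Maged1 (r = 0.00) and Arhgdia (r = 0.09), the highest by level, were not called. With the level of Ngfr 3 of the 9 were called, all higher, a smaller share than the 44.4% of all tested genes called with it (18.2% higher); Maged1 was among them (r = 0.27). Of 9 transcriptional regulators, Srf, a factor of the immediate early response, was called higher with the score (r = 0.54) and with Bdnf (r = 0.39). Usf1 was called higher too (r = 0.24) and the CREB coactivator Crtc1 lower (r = -0.23); Mef2c was not called (r = -0.09). With Ntrk3 all 9 were called, 7 higher and 2 lower, where 67.8% of all tested genes were.

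**Figure D5:**
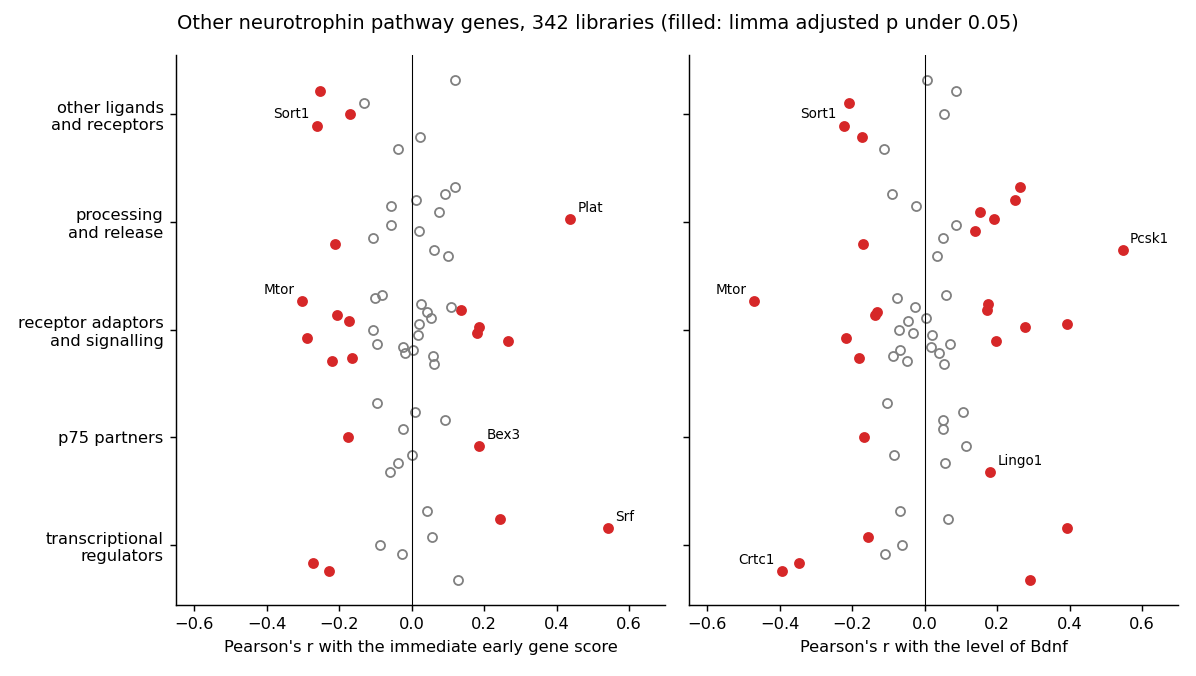
Pearson's r of 62 other neurotrophin pathway genes, by list, with the immediate early gene score (left) and with the level of Bdnf (right), over all libraries; filled points have a limma adjusted p under 0.05. Called genes number 21 on the left and 27 on the right and lie on both sides of 0; Srf is highest on the left (0.54) and Pcsk1 on the right (0.55).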

How the data were processed

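Whole brain hemispheres were measured by polyA RNA sequencing, after TRIzol extraction, with directional NEBNext libraries, per the labels' protocols. The submitters' processing notes name kallisto, for which the sources used here give no version. The deposited values are log2 of the authors' estimated count plus 1, per gene and not scaled for depth. Of 352 labelled samples 342 are in the table and 10 are not analysed here; 335 lie in the 7 identifier blocks, and 14 libraries had been renamed by the submitters. Estimated counts were recovered, divided by the library total to CPM and turned into log2(CPM + 1), a pseudocount of 1, which understates folds of low genes.

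All libraries form 1 group; identifiers differ, but the labels do not state that each library is a separate animal, so p-values measure the spread between these samples, which may in part be technical. The 16683 genes averaging 1 or more were fitted with limma 3.58.1 (R 4.3.3, mean-variance trend, two-sided) on each score or member level, with Benjamini-Hochberg adjustment over all tested genes and a call at adjusted p under 0.05. Correlations used 100000 permutations, in Python 3.11.15 with numpy 2.4.6. Scores are mean z values of marker lists. The spread trend was lowess with a span of 0.3, and intervals of counting error cover counting only. Scripts were tested on simulated data. Coordinates and promoters are RefSeq's on GRCr8; 38278 genes matched by symbol.

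The 6 genes, the lists and the tests were chosen with earlier results of these data known. Besides the 6 genes, the text names, per gene, the 5 of highest r that have a name; of each pathway list the 3 called genes of largest r with the immediate early gene score and the 2 of highest level; and of a score list the 3 of highest level. Other list genes, the neighbours of Ngfr and the late response comparisons given on their own were named after their values were seen. Of the libraries 4 correlated least with the rest. They were kept, and results without them were computed. Some genes that this rule gives are not reported here.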

Additional observations from a re-analysis of the deposited data

How the results depend on the processing

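The alternatives were unscaled deposited values, size factors by median ratio, a smaller pseudocount of 0.1, a minimum mean level of 3 or none, exclusion of the 17 libraries with fewest genes or of the 4 that correlated least with the rest, removal of block means and added covariates. No paired analysis was possible because the labels give a single group and no replicate numbers. Without scaling, every gene carries the library total: 100% of combinations with other measures were called (47.6% as reported), 15 pairs (7), 62 pathway genes (21), 2 genes between blocks (1) and 0 genes of wide spread (1). Relations negative as reported were then positive: with the immediate early gene score Ntf3 0.48, Ntrk2 0.56, Ntrk3 0.56 and Ngfr 0.46; with the late response score Ntrk2 0.91, Ntrk3 0.90 and Ngfr 0.67; Ngfr with cortical neurons 0.72; Ntrk3 with hypothalamic neurons 0.66 and oligodendrocytes 0.90; Bdnf with astrocytes 0.81 and oligodendrocyte precursors 0.79; Ntrk3 with microglia 0.91; striatal neurons with Ntrk2 0.93 and Ngfr 0.70; Ngfr with glucocorticoid-responsive genes 0.58; nuclear RNA with Ntrk2 0.61, Vgf 0.54 and Ngfr 0.38. Likewise the pairs Bdnf with Ntrk2 0.81, Ntrk3 0.80 and Ngfr 0.60; Ntf3 with Ntrk2 0.76, Ntrk3 0.75 and Ngfr 0.54; Ntrk3 with Ngfr 0.72 and Vgf 0.85.

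With 10 principal components removed 2 pairs were called, Bdnf with Vgf and Ntrk2 with Vgf. Bdnf with Ntrk2 (0.13), Bdnf with Ngfr (0.12), Ntrk3 with Ngfr (0.037) and Ntrk3 with Vgf (0.081) turned positive without a call. The cause was not tested. Chosen after seeing the data, adding the late response score left 2 genes called with the immediate early gene score and turned Bdnf (-0.028) and Vgf (-0.0094); adding both scores to the pairs turned Bdnf with Ntrk2 (0.12) and with Ngfr (0.16). Removing 5 components left 0.803% of genes called with Ngfr, most of them beyond 2 Mb, against 0.0719% as reported, all within 2 Mb. The r of Bdnf with the late response score lay between 0.79 and 0.94 over its 10 alternatives. Depth limits Ntf3 most, at a median of 40 counts.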
